A study of Homo sapiens with 6 samples.

Results

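The inner membrane of the mitochondrion folds into cristae, and the genes described here encode the proteins that build and hold those folds. They are APOO, APOOL, IMMT, CHCHD3 and CHCHD6 of the MICOS complex, SAMM50, MTX1 and MTX2 of the outer membrane, and OPA1, 9 of the 15498 genes that could be tested under 1 symbol. APOO was chosen by its measured log2 difference between the groups, about 2-fold lower in cells given CONCR siRNA. The other 8 were chosen as its known partners and not for their values, though with earlier results of these data known. Each of the 9 had a single transcript cluster (the array's unit for a transcribed locus) annotated to its symbol alone, and all 9 passed the filter on low signal. APOO's own difference is therefore given as a description with no test, while the question tested was whether its partners moved.

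The cells were A549, an established human lung adenocarcinoma line grown in medium with 10% calf serum. One group of 3 arrays came from cells that received 2 siRNAs together, aimed at CONCR, a long noncoding RNA divergent from the helicase gene DDX11, and the other 3 from cells given a control siRNA. Both groups received lipid transfections of siRNA at 40 nM, the second 24 h after the first, and 300 ng of total RNA was labelled. The series calls the knockdowns independent without naming separate cultures, so the p-values speak of the spread among these arrays, some of which may be technical.

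MICOS sits at crista junctions, the necks where cristae join the inner boundary membrane. IMMT (MIC60) is its core, bound on the side of the intermembrane space by CHCHD3 (MIC19) and CHCHD6 (MIC25), while APOO (MIC26) and its paralogue APOOL (MIC27) belong to a second subcomplex that interacts with the mitochondrial lipid cardiolipin. SAMM50, MTX1 and MTX2 form the sorting and assembly machinery of the outer membrane, which MICOS contacts to bridge the membranes. OPA1 is a dynamin-like GTPase that fuses inner membranes and keeps crista junctions narrow. Loss of IMMT is known to disrupt the whole complex, whereas APOO and APOOL proteins are known to affect each other's levels.

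The starts of APOO, of its paralogue APOOL and of the MICOS core gene IMMT are shown because APOO differed while the other 2 did not pass the test. Those of the other 6 genes were searched for the same motifs. The windows below, from RefSeq on GRCh38.p14, run 5′ to 3′ on the gene's strand from 250 bases before the annotated start to 50 after it, 300 bases in all. Capitals mark matches on either strand to 6 short motifs of factors known from promoters of mitochondrial genes, NRF1 (CGCATGCGC), GABPA (CCGGAAG), SP1 (GGGCGG), YY1 (ATGGCGGC), the CCAAT box (CCAAT) and ERRA (AAGGTCA). APOO lies on the minus strand at chrX:23907889-23908188, APOOL on the plus strand at chrX:85003627-85003926, and IMMT on the minus strand at chr2:86195413-86195712.
APOO: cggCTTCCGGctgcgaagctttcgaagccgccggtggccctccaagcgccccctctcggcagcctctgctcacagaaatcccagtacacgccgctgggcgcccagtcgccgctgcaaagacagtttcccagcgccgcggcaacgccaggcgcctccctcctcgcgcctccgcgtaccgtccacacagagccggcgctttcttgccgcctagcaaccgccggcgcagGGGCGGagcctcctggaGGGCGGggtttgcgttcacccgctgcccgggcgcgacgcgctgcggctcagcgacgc
APOOL: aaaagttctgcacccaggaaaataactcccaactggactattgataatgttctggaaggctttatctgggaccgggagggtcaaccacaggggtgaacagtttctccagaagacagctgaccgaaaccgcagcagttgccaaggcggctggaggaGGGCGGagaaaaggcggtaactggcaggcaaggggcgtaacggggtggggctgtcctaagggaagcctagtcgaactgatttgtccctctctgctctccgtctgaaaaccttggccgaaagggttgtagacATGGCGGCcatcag
IMMT: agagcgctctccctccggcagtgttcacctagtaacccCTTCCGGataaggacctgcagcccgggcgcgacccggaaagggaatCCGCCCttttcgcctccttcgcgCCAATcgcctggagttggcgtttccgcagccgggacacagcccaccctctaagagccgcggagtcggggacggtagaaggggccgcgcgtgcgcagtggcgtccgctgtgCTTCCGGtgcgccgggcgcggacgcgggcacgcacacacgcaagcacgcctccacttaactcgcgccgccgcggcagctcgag

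The GABPA letters stood in the windows of 3 of the 9 genes, APOO, IMMT and MTX2, against 10.7% of 27305 windows of all genes. IMMT and MTX2, which share these letters with APOO, did not pass the test. Any part of the letters in the difference of APOO was not tested. The SP1 letters were in 7 of 9 windows (44.6% of all windows) and the CCAAT letters in 6 (35.7% of all), APOO being among those without CCAAT. The NRF1 letters were found in OPA1 alone (2.1% of all windows), the YY1 letters in APOOL alone (3.21%) and the ERRA letters in none of the 9 (3.97%). The window of APOO was 72.3% G and C, the highest of the 9, and that of APOOL 55.0%, the lowest, against a median of 58.3% over all windows. A match describes letters only and says nothing of binding in these cells.

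The arrays as a whole set the frame. Log2 signals correlated at 0.989 to 0.993 within groups and 0.987 to 0.991 between groups. CONCR itself (DDX11-AS1) had a mean of 4.46 ± 0.21 (SD, n = 3) in the cells that received its siRNAs, against 4.69 ± 0.04 (SD, n = 3) in controls. Its difference of -0.23 did not pass (limma adjusted p = 0.42), and its signal lay close to the filter's log2 signal of 4. It therefore neither checks the labels nor shows how far the knockdown went. Of the 5 epithelial markers, KRT8, KRT18 and CDH1 were bright, KRT19 was at 4.82 and 4.80 in the 2 groups, and EPCAM was below the filter at 2.81 and 2.76. The lung lineage markers SFTPC, SFTPB, SCGB1A1 and NKX2-1 read between 4.43 and 4.98, close to the filter. All 5 leukocyte markers were below the filter. The fibroblast markers DCN and LUM and the endothelial markers PECAM1, TEK and KDR were below it too, while COL1A2 and PDGFRB of fibroblasts and CDH5 and VWF of endothelium passed it narrowly, with means of 4.17 to 4.56. Of the 12 markers of all 5 lists that could be tested, 0 passed in limma and 1, CDH1, had an unadjusted p under 0.05.

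APOO was lower on every array with CONCR siRNA. Its log2 signal was 6.31, 6.14 and 6.20 on the 3 arrays with CONCR siRNA and 7.19, 7.30 and 7.30 on the 3 with control siRNA. The groups did not overlap (12.8% of all genes were likewise lower without overlap), and a gap of 0.87 separated the highest of the first from the lowest of the second. The means were 6.22 ± 0.09 and 7.26 ± 0.07 (SD, n = 3), a difference of -1.04 on the log2 scale. That corresponds to 48.5% of the control signal, or 2.06-fold lower on the RMA scale. Only 12 of all 15498 genes (0.0774%) were called and at least 2-fold lower, and APOO was taken from that end of the range, so nothing is read from its place there. In a bulk sample, less RNA per cell and fewer cells that express a gene cannot be told apart.

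None of the 8 partners passed the limma test in either direction, and none had an unadjusted p under 0.05. In the same comparison 2.01% of all 15498 genes were called lower and 0.6% higher, and 14.9% had an unadjusted p under 0.05. The median difference of the 8 was -0.01, against 0.01 over all genes, and 5 of the 8 had a negative sign. Differences ran from -0.11 for OPA1 to 0.14 for MTX2. Every 95% confidence interval among the 8 lay between -0.26 and 0.29, so a change as large as that of APOO lay outside each of them. A p above the threshold does not show equal levels, and the intervals give the size of change that remains possible.

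**Figure D1:**
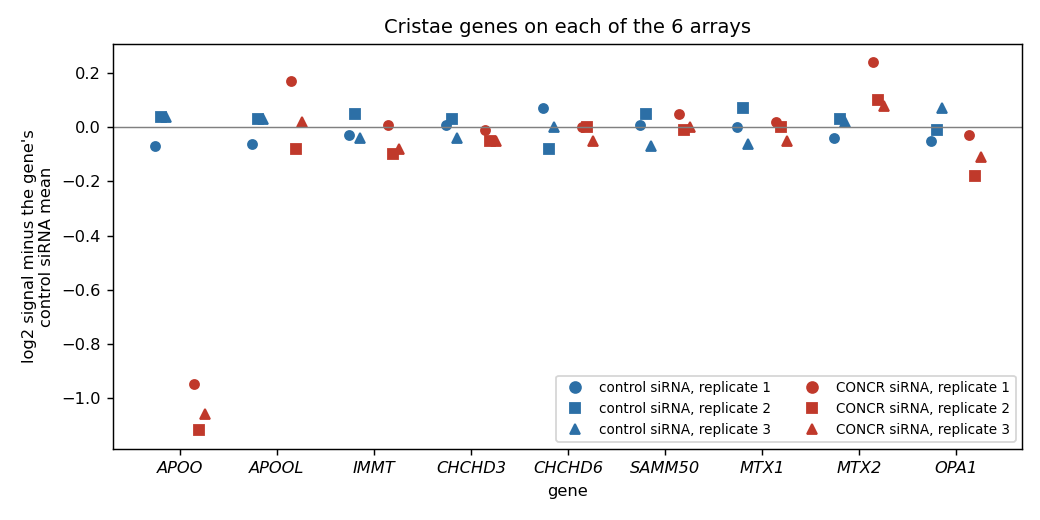
Log2 signal of each cristae gene on each array, as the difference from that gene's mean over the 3 control siRNA arrays (y axis, log2 units), with CONCR siRNA in red, control siRNA in blue and symbols for the replicate number. APOO sits about 1 unit lower on all 3 CONCR siRNA arrays, while the points of the other genes lie near 0 and only those of MTX2 do not overlap between groups.

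APOOL, the paralogue of APOO in the same subcomplex, did not pass. Its log2 signal was 7.51, 7.26 and 7.36 with CONCR siRNA and 7.28, 7.37 and 7.37 with control siRNA. The groups overlapped, with 1 CONCR siRNA array above all controls and 1 below them. APOOL differed by 0.04 (SE 0.08, limma adjusted p = 0.91, 95% confidence interval -0.14 to 0.21), or 103% of control with bounds of 90.7% and 116%. Its SD of 0.12 with CONCR siRNA was the largest among the 9 genes, and APOOL was at -0.03 when CONCR siRNA replicate 1 was left out.

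No gene of the MIC60 subcomplex passed, and their differences were 0.05 or less in size. IMMT, its core, had log2 signals of 9.27, 9.16 and 9.18 with CONCR siRNA and 9.23, 9.31 and 9.22 with control siRNA, a difference of -0.05 (SE 0.06, 95% confidence interval -0.18 to 0.08, limma adjusted p = 0.81). The ranges overlapped, the highest reading being on a control array. CHCHD3, which ties IMMT to SAMM50, read 8.70, 8.66 and 8.66 against 8.72, 8.74 and 8.67. Its difference of -0.04 had an interval of -0.16 to 0.08 (limma adjusted p = 0.84), which bounds a fall at 89.7% of control. CHCHD6, a paralogue of CHCHD3 with the same twin cysteine motif, read 5.35, 5.35 and 5.30 against 5.42, 5.27 and 5.35. The difference of CHCHD6 was -0.02 (95% confidence interval -0.15 to 0.12, limma adjusted p = 0.96). It was the dimmest of the 9 clusters and the 1 that a stricter filter at a log2 signal of 6 would remove.

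The outer membrane partners did not pass either, and only for MTX2 did the groups separate. SAMM50, the channel protein that inserts beta-barrel proteins, read 7.75, 7.69 and 7.70 with CONCR siRNA and 7.71, 7.75 and 7.63 with control siRNA, a difference of 0.01 (95% confidence interval -0.12 to 0.15, limma adjusted p = 0.96). MTX1, a metaxin on the cytosolic face of that channel, read 7.31, 7.29 and 7.24 against 7.29, 7.36 and 7.23, a difference of -0.01 (95% confidence interval -0.15 to 0.12, limma adjusted p = 0.97). For SAMM50 and MTX1 the groups overlapped.

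MTX2, the metaxin that pairs with MTX1, was the partner with the largest positive difference. It read 7.54, 7.40 and 7.38 with CONCR siRNA and 7.26, 7.33 and 7.32 with control siRNA. All 3 CONCR siRNA arrays were above all 3 controls, as were those of 11.7% of all genes. The difference of 0.14 (SE 0.06, 95% confidence interval -0.01 to 0.29) did not pass (limma adjusted p = 0.42), and without CONCR siRNA replicate 1 it was 0.09.

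OPA1 had the most negative difference among the partners. Its log2 signal was 6.96, 6.81 and 6.88 with CONCR siRNA and 6.94, 6.98 and 7.06 with control siRNA, so 1 CONCR siRNA array lay within the control range and 2 below it. OPA1 differed by -0.11 (SE 0.06, limma adjusted p = 0.57, 95% confidence interval -0.26 to 0.04), or 92.8% of control with a lower bound of 83.6%. The array measures OPA1 RNA and not the cleavage of its protein into long and short forms.

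**Figure D2:**
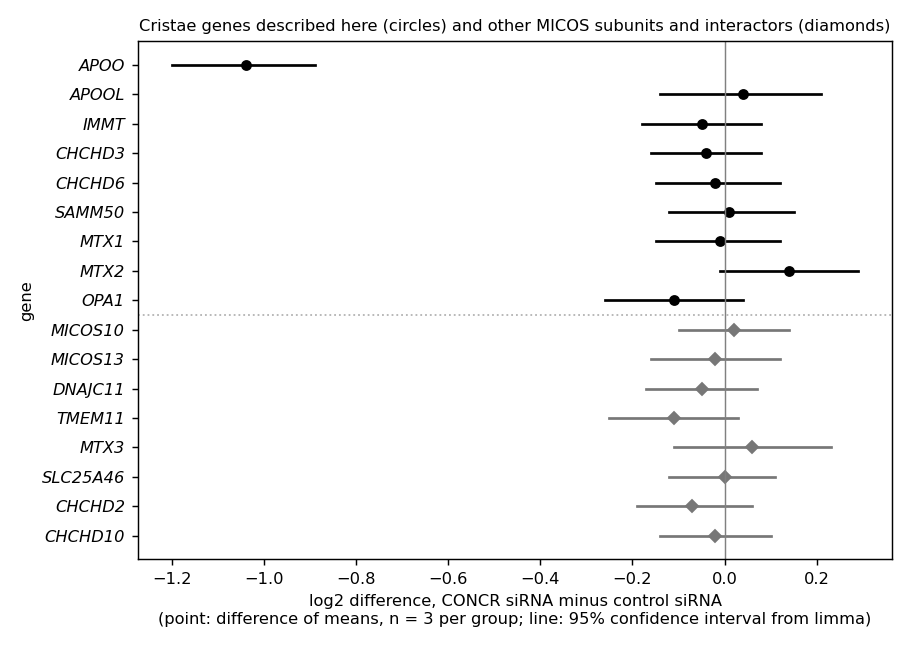
Log2 difference between CONCR siRNA and control siRNA (x axis) for the 9 cristae genes (black circles) and 8 further MICOS subunits and interactors (grey diamonds), with 95% confidence intervals from limma, n = 3 per group. APOO stands at -1.04, chosen for that difference, so its interval is not read as a test. The intervals of the 16 other genes all include 0.

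Of the 9 genes, 8 shared a pattern between replicates of the CONCR siRNA group. CONCR siRNA replicate 1 gave the highest reading of its group for 8 of the 9 genes, APOO included, and CHCHD6 had an equal reading on replicates 1 and 2. Over all genes that array was the highest of its group for 37.2%, and over the 101 tested genes of the mitochondrial lists counted below for 49.5%. Over the 3518 genes with a mean log2 signal of at least 7, a cut set after the values were seen, it was highest for 62.7%. Among the controls, replicate 2 was highest for 5 of the 9 genes and for 59.6% of those brighter genes. Without CONCR siRNA replicate 1 the difference of APOO was -1.09, and 0 of the 8 partners passed. The part of the array in this pattern was not tested.

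Likeness to APOO over the 6 arrays was measured by Pearson correlation. Among the 9 genes the correlation was highest for OPA1 (0.77), CHCHD3 (0.63) and IMMT (0.57) and lowest for MTX2 (-0.71), as descriptions over 6 arrays that share the group contrast. Over all tested genes the closest were TMBIM6, an inhibitor of cell death in the endoplasmic reticulum membrane (0.9996), AGMO, which cleaves ether lipids (0.9994), SLC30A7, a zinc transporter of the secretory pathway (0.9993), and NETO2, an auxiliary subunit of kainate receptors (0.9992). Their log2 differences were -0.70 for TMBIM6, -0.40 for AGMO, -0.66 for SLC30A7 and -0.79 for NETO2. None of the 4 is a component of MICOS. They were picked as the highest over all tested genes, on arrays that share the contrast by which APOO was chosen. Nothing is therefore read from the size of their correlations. TMBIM6 had 2 clusters, of which the brightest tested was used.

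The remaining MICOS subunits were measured as well. MICOS10, which shapes the membrane at crista junctions, read 6.76, 6.74 and 6.74 with CONCR siRNA and 6.68, 6.72 and 6.76 with control siRNA, a difference of 0.02 with an interval of -0.10 to 0.14. MICOS13, which links the subcomplexes of IMMT and APOO, read 5.82, 5.72 and 5.73 against 5.84, 5.78 and 5.71, a difference of -0.02 with an interval of -0.16 to 0.12. In both genes the groups overlapped. With TMEM11 at -0.11 (limma adjusted p = 0.52) and CHCHD2 at -0.07 (limma adjusted p = 0.70) they belong to a list of 8 further subunits and interactors. By limma 0 of these 8 passed, 0 had an unadjusted p under 0.05, and their median was -0.02.

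Genes that handle APOO's partners and lipids were then counted in 7 lists, that list included. Of 101 tested genes 5 fell, 0 rose and 96 did not pass, by limma adjusted over all clusters. The 5 are 4.95% of the lists, against 2.01% called lower over all genes, and the lists had a median of 0.00 against 0.01. At an unadjusted p under 0.05 there were 10, or 9.9%, below the 14.9% over all genes. The falls were spread over 4 lists, and each was smaller than that of APOO.

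Fusion and fission genes held 2 of the falls among 10 tested. MFN2, a mitofusin that joins outer membranes and tethers mitochondria to the endoplasmic reticulum, read 6.76, 6.73 and 6.61 with CONCR siRNA and 7.10, 7.17 and 7.02 with control siRNA. Its groups did not overlap, and it fell by 0.40 (SE 0.07, limma adjusted p = 0.035), to 75.9% of control. MIEF1, an outer membrane receptor for the fission GTPase DNM1L, read 5.07, 5.17 and 5.13 against 5.47, 5.47 and 5.42 and fell by 0.33 (SE 0.05, limma adjusted p = 0.032). The list median was -0.06, and 3 of the 10 (30.0%) had an unadjusted p under 0.05 in limma, against 14.9% over all genes. Besides MFN2 and MIEF1 these include MFN1, a mitofusin too, at -0.18 without overlap of the groups and without passing (limma adjusted p = 0.18). The calls of MFN2 and MIEF1 were lost whichever array was left out, with adjusted p of 0.076 to 0.14 for MFN2 and 0.078 to 0.13 for MIEF1 by limma. Their differences in those refits ran from -0.44 to -0.36 for MFN2 and from -0.36 to -0.31 for MIEF1. Over all clusters the calls went from 613 to between 129 and 411 when 1 array was left out.

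The 12 tested scaffolds and proteases of the inner membrane, among them the proteases that cleave OPA1, held no call, and 1 had an unadjusted p under 0.05 in limma. That was YME1L1, a protease that makes short OPA1 forms, at -0.18 (SE 0.07, limma adjusted p = 0.37), while IMMP2L, an inner membrane peptidase, was at -0.11 (limma adjusted p = 0.58). The 17 tested subunits of ATP synthase, whose dimers bend the membrane at crista rims, held 0 calls in limma and 0 at an unadjusted p under 0.05. ATP5PF was at 0.11 and ATP5MJ at -0.15, and the list median was -0.01. The genes of these 2 lists lay between -0.18 and 0.12.

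LCLAT1, an acyltransferase that remodels cardiolipin, was the 1 call among 16 genes of cardiolipin and mitochondrial lipids. It read 7.96, 7.92 and 7.91 with CONCR siRNA and 8.26, 8.43 and 8.42 with control siRNA, without overlap, and fell by 0.44 (SE 0.06, limma adjusted p = 0.024). TRIAP1, a chaperone of lipid transfer between the membranes and also a p53 target, was at 0.28 without passing (limma adjusted p = 0.14). It passed with the stricter filter at a log2 signal of 6 (limma adjusted p = 0.042) and with 1 cluster per gene fitted (0.044). The list median was 0.00, and 2 of the 16 (12.5%) had an unadjusted p under 0.05 in limma, against 14.9% over all genes. The call of LCLAT1 was kept only without control siRNA replicate 1 (adjusted p = 0.023) and lost without each of the other 5 arrays, reaching 0.11 in limma. Its difference in those refits ran from -0.50 to -0.41.

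Import of proteins into mitochondria held 1 call among 25 tested genes. TIMM8B, a small chaperone of the intermembrane space, read 6.77, 6.51 and 6.47 with CONCR siRNA and 7.09, 7.20 and 7.06 with control siRNA, and fell by 0.53 (SE 0.09, limma adjusted p = 0.038). Its groups did not overlap. Of the 25 genes, 2 (8.0%) had an unadjusted p under 0.05 in limma, against 14.9% over all genes. AIFM1, which supports the oxidative import of twin cysteine proteins, was at 0.19 without passing (limma adjusted p = 0.14). It passed with the stricter filter at a log2 signal of 6 (limma adjusted p = 0.031) and with 1 cluster per gene fitted (0.043). The call of TIMM8B was kept only without CONCR siRNA replicate 1 (adjusted p = 0.034) and lost without each of the other 5 arrays, reaching 0.16 in limma. Its difference in those refits ran from -0.63 to -0.48.

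TFB1M, a methyltransferase of the mitochondrial ribosomal RNA, was the 1 call among 13 tested genes of mitochondrial biogenesis and DNA. It read 4.28, 4.23 and 4.31 with CONCR siRNA, close to the filter's log2 signal of 4, and 4.72, 4.81 and 4.76 with control siRNA. TFB1M fell by 0.49 (SE 0.05, limma adjusted p = 0.0099) with no overlap of the groups. PPRC1, a coactivator of mitochondrial biogenesis, was at -0.16 (limma adjusted p = 0.28). Of the 13 genes, 2 (15.4%) had an unadjusted p under 0.05 in limma, against 14.9% over all genes. The call of TFB1M survived leaving out CONCR siRNA replicate 3 or control siRNA replicate 1 and was lost without each of the other 4 arrays, with an adjusted p of up to 0.061 in limma. Its difference in those refits ran from -0.51 to -0.46.

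**Figure D3:**
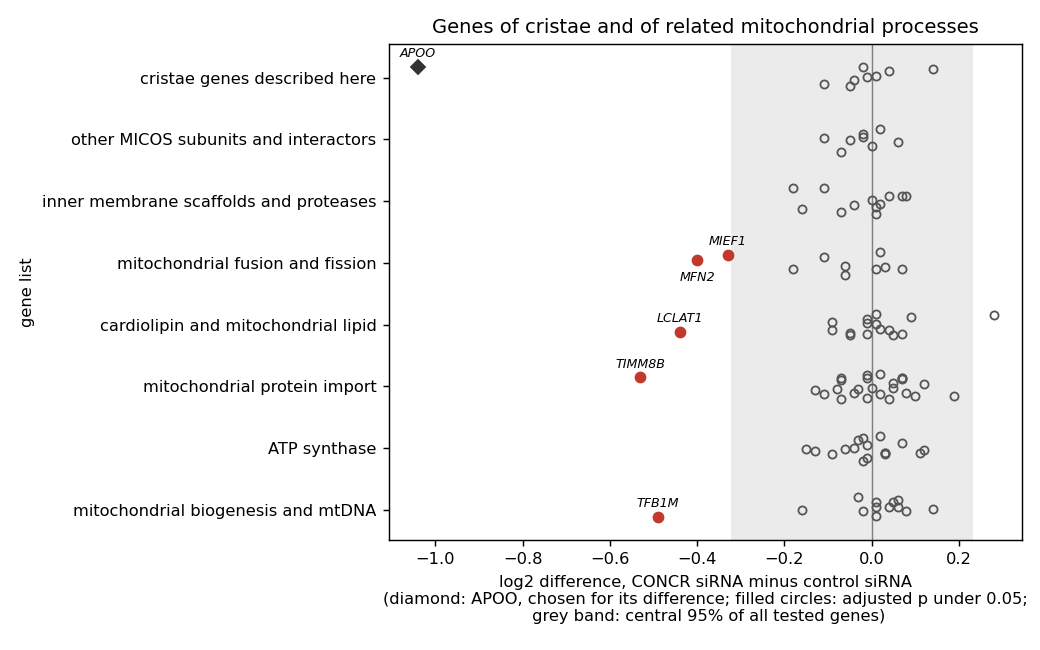
Log2 difference between CONCR siRNA and control siRNA (x axis) for each tested gene of the cristae genes and of 7 lists of related mitochondrial genes (rows, with vertical scatter for legibility). APOO is the dark diamond at -1.04, the 5 genes past an adjusted p of 0.05 are filled circles, other genes are open circles, and the grey band spans the central 95% of all tested genes, from -0.32 to 0.23.

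No tested neighbour of APOO on the X chromosome was called lower. Of the 5 RefSeq genes before and the 5 after APOO by start coordinate, 5 were tested. Of these 0 were called lower and 1 higher by limma. The pseudogene RPL9P7, counted among those after, lies within APOO and had no cluster annotated to it alone. An unadjusted p under 0.05 with a positive sign was found for 2. Over all genes 2.01% were called lower, 0.6% higher, and 14.9% had an unadjusted p under 0.05. At such shares 0 lower calls among 5 genes are not read as a result about the locus. KLHL15, an adaptor of a CUL3 ubiquitin ligase, rose by 0.38 (SE 0.07, limma adjusted p = 0.046), reading 6.53, 6.63 and 6.47 with CONCR siRNA and 6.08, 6.24 and 6.17 with control siRNA, opposite in sign to APOO and without overlap. Its call was lost whichever array was left out, with adjusted p of 0.10 to 0.16 in limma and differences of 0.34 to 0.42. ACOT9, a mitochondrial thioesterase gene on the other side, was at 0.14 (SE 0.05, limma adjusted p = 0.32). CXorf58 starts head to head with APOO, the 300-base windows at their starts sharing 167 bases, and its cluster stayed below the filter in both groups, at 2.15 ± 0.11 and 2.11 ± 0.05 (SD, n = 3).

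RefSeq lists 5 pseudogenes named after APOO, and 1 of them, APOOP5, had a cluster of its own. It read 4.19, 4.33 and 3.96 with CONCR siRNA and 4.38, 4.59 and 4.61 with control siRNA, without overlap, a difference of -0.37 (SE 0.11, 95% confidence interval -0.63 to -0.11) that did not pass (limma adjusted p = 0.21). Because a processed copy can share probe sequence with its parent gene, the value of APOOP5 is uncertain, and how far its probes match APOO was not checked.

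**Figure D4:**
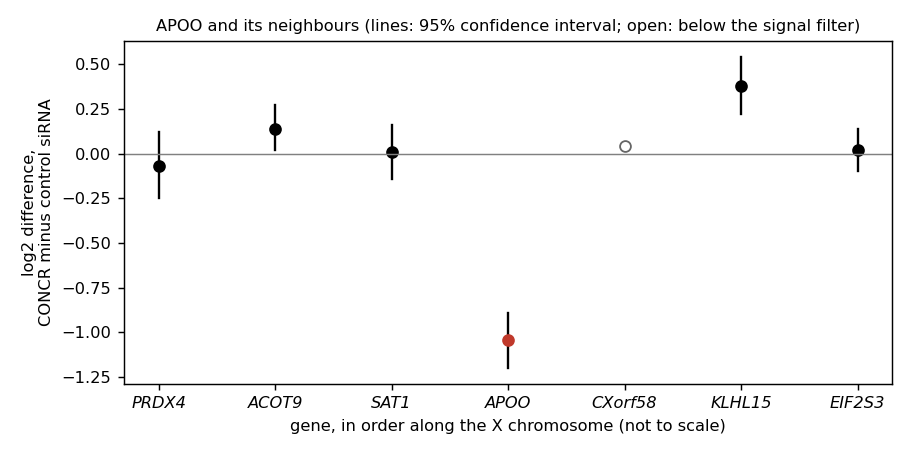
Log2 difference between CONCR siRNA and control siRNA (y axis) for APOO (red) and the neighbouring genes with a cluster, in their order on the X chromosome and not to scale, with 95% confidence intervals from limma (n = 3 per group). APOO is at -1.04, chosen for that difference, so its interval is not read as a test. KLHL15 is at 0.38, and CXorf58, drawn open without an interval, was below the signal filter.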

How the data were processed

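RNA from 6 samples of A549 cells was measured on Affymetrix whole-transcript arrays, 3 arrays per group. The deposited values are log2 signals per probe set, made by the authors with RMA in Affymetrix Power Tools, per the submitters' processing notes. Their version and the genome build of the probe sets are not given in the sources used here. Of 70523 probe sets, 67528 were transcript clusters. Clusters entered the test with a log2 signal above 4 on at least 3 arrays (32540 clusters). Symbols came from the platform annotation, updated by Entrez identifier to RefSeq GRCh38.p14. Only clusters with 1 symbol were named, and the brightest by mean signal stood for a gene, which gave 15498 genes.

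The comparison used lmFit and eBayes of limma 3.58.1 (R 4.3.3) with two-sided p-values, adjusted by Benjamini-Hochberg across the 32540 clusters, and a threshold of 0.05. Adjusted p-values are from that fit, except those given for a left-out array or another setting, which are from the refit named. The fit was first tested on simulated data, with changes planted in clusters drawn at random from the 32540 and each cluster given its own observed spread. There it called 12.2% of log2 differences of 0.3, 50.4% of those of 0.5 and 88.1% of those of size 1. Those rates are over clusters of any brightness and were not measured for the genes described here. A missing call therefore does not show that a small difference is absent. Precision is limited by the number of arrays, and array signals carry no read depth. RMA equalises the distributions of the arrays, so a change in total RNA per cell would not be seen. The alternatives were the replicate block, other filters, other normalizations, another variance model, array weights, leaving out each array, and fitting 1 cluster per gene.

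The genes, the lists of related genes and the tests were chosen with earlier results of these data known. From each list the text names up to 4 genes past the threshold by smallest p, or the 2 with the smallest p where fewer than 2 passed, together with the 2 neighbours of APOO with the smallest p and the 4 genes most correlated with APOO. MFN1, MICOS10, MICOS13, APOOP5 and CXorf58 were named outside that rule, after their values were seen. Deviations from the group means correlated between same-numbered arrays at -0.27, -0.16 and -0.08, so no likeness within a number was seen. With 3 arrays per group the deviations sum to 0, so these values cannot show whether the arrays were handled in pairs. The replicate numbers alone do not say so either. Where RefSeq gave a gene several starts, the first window listed was used. Protein sequences were not used here.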

Additional observations from a re-analysis of the deposited data

How the results depend on the processing

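Over 111 refits of the 8 partners under 14 alternatives, 0 passed, with a smallest adjusted p of 0.19 (MTX2, strict filter) and differences of at most 0.17 in size. APOO stayed between -1.09 and -1.01. Signs near 0 turned for CHCHD6 with array weights (0.001) and for MTX1 under quantile normalization (0.009). Leaving out 1 array gave ranges of -0.03 to 0.09 for APOOL, -0.05 to 0.02 for CHCHD6, -0.02 to 0.04 for SAMM50, -0.04 to 0.02 for MTX1 and -0.05 to 0.02 for MICOS13. Called clusters numbered 613, and 51 with the replicate block, 238 without a filter, 1102 under the strict filter, 965 with an intensity trend and robust estimation, 958 with 1 cluster per gene, and 129 to 411 without 1 array. The replicate block left 0 calls in every mitochondrial list and among the neighbours, and whether the numbers pair the arrays is not known. Without a filter the fusion, lipid, import and neighbour calls became 0 (TFB1M kept its call), and under median centring the lipid, import and neighbour calls became 0. The strict filter gave 2 lipid, 2 import and 0 biogenesis calls, since it removed TFB1M, and 1 cluster per gene gave 2 lipid and 2 import calls. In each of these lipid and import counts 1 call was lower and 1 higher, the rises being TRIAP1 and AIFM1. Without 1 array the counts were 0 for fusion and for neighbours and 0 to 1 for lipid, import and biogenesis genes. The strict filter also removed MIEF1, so its 2 lower fusion calls among 7 tested were MFN2 and a gene not called in the main fit. Apart from the removal of TFB1M and MIEF1 by the strict filter, the causes of these changes in calls were not tested. CHCHD6 did not enter the strict filter. Averaging a gene's clusters could not change the 9 genes, which have 1 each. Signals near a log2 of 4, such as TFB1M and APOOP5, give the least certain differences.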
